A study of Homo sapiens with 9 samples.

Results

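The genes described here are MRI1, RAB4A, PXDNL, AGGF1, WDR35, MPEG1 and HTR3A, 7 of 57500 genes counted in BJAB, a human B-cell line. They were chosen by name because earlier results of these same data showed a very low level in cells given an isoform of the receptor TACI. MRI1, RAB4A and PXDNL were chosen on the line given the long isoform (TACI long). AGGF1, WDR35, MPEG1 and HTR3A were chosen on the line given the short isoform (TACI short). All 7 were among the 16672 genes that passed a filter on low counts. The values that chose a gene are given as a description with no test. A test is given only for the line that did not choose it, which is compared with the same control libraries. Such a test is not independent of the choice, because both use those control libraries.

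The study asked which genes each TACI isoform changes in resting B cells. It holds 9 libraries, 3 of unmodified BJAB cells (control), 3 of TACI long and 3 of TACI short, and all are labelled untreated. BJAB is an established line, labelled as a Burkitt lymphoma tumor. The titles speak of stable transfection and the design text of transduction. Neither says which promoter drives the isoform or whether a line is 1 clone or a pool, and the control is not labelled as carrying an empty vector. Polyadenylated RNA came from sorted cells, and the Nextera XT libraries keep no strand. The labels number the replicates but do not say that they are separate cultures, so the spread behind each p-value may be a technical one.

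TACI, a TNF-receptor family protein on B cells, has BAFF and APRIL as its ligands, and its isoforms arise by alternative splicing of the ligand-binding region. The 7 genes belong to unrelated pathways. MRI1 is methylthioribose-1-phosphate isomerase, an enzyme that returns the sulphur of spent S-adenosylmethionine to methionine. RAB4A is a small GTPase that directs fast recycling of receptors from early endosomes to the cell surface. PXDNL, peroxidasin-like, belongs to the haem peroxidase family. AGGF1 is a protein with a G-patch domain that was first described as an angiogenic factor. WDR35 is a subunit of the intraflagellar transport A complex, which carries cargo back along the cilium. MPEG1, or perforin-2, forms pores in engulfed bacteria and is expressed in macrophages and B cells. HTR3A is a subunit of the serotonin-gated ion channel.

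Total counts per library ran from 40322136 to 50079203. TACI short replicates 2 and 3 stood apart, with a count for 32882 and 32209 genes against 24307 to 25938 in the other 7 libraries. They also held more RNA of the 11 myeloid markers, at a summed level of 129 and 125 CPM (the count over the library total, scaled to equal depth), against 28.9 in TACI short replicate 1, 11.8 to 22.4 in control and 15.7 to 29.9 in TACI long. CSF1R was the largest single part of that sum in them, at 57.8 and 56.7 CPM, followed by FCER1G (26.4 and 24.8) and ITGAM (23.4 and 23.5). S100A8 had no count in any library. All 6 B-cell markers were detected everywhere, with sums of 3680 to 3810 CPM in control, 3280 to 3310 in TACI long and 2960 to 3100 in TACI short. TNFRSF13B, the gene of TACI, was at 14.6 to 28.8 CPM in control, 691 to 738 in TACI long and 2650 to 2970 in TACI short, and gene counts cannot separate the isoforms or the introduced copy. In bulk RNA, fewer cells that express a gene and less RNA per cell cannot be told apart.

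Per kilobase of exon, the 7 genes stood in a fixed order in control cells. MPEG1 led with 24.8 CPM per kb, followed by HTR3A at 4.2, RAB4A at 2.66, MRI1 at 2.07, AGGF1 at 1.58, WDR35 at 0.656 and PXDNL at 0.522. The 3 control libraries of each gene did not overlap with those of the next gene in that order. Levels below are plain CPM, the count over its library's total, so they compare a gene only with itself.

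**Figure D1:**
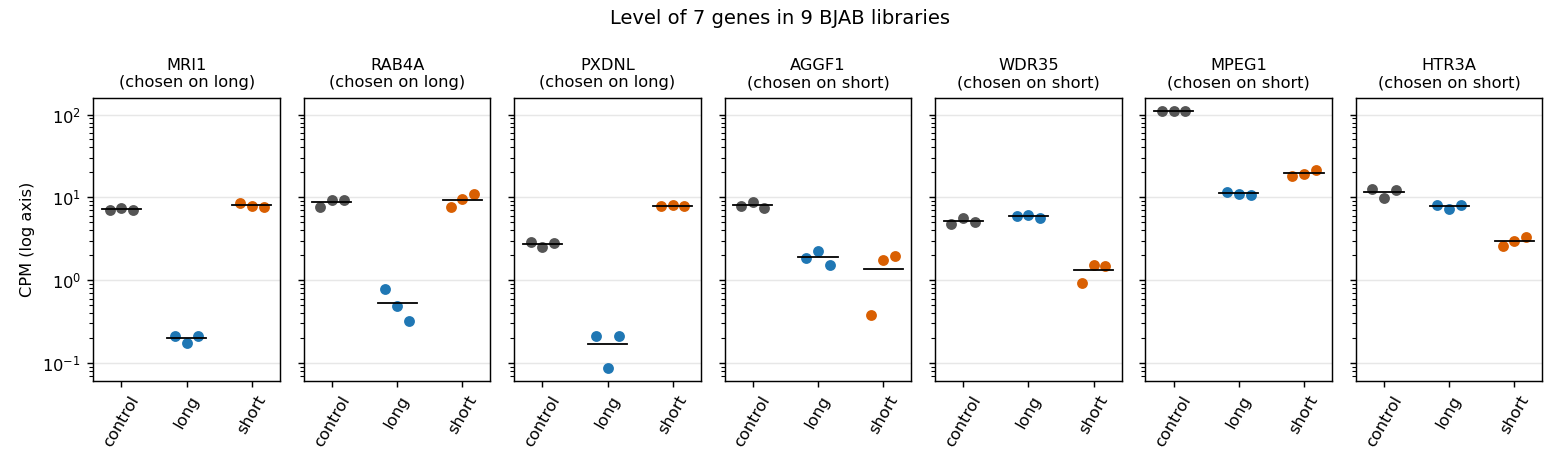
The level of each gene in CPM on a log axis, with 1 point per library and a line at the mean of the 3 libraries of a group. MRI1, RAB4A and PXDNL sit far below control in TACI long, AGGF1 and MPEG1 in both lines, and WDR35 and HTR3A lowest in TACI short.

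MRI1 (ENSG00000037757, chr19:13764532-13774282 of GRCh38, plus strand) showed the deepest loss of the 7. Control replicates 1 to 3 had 7.04, 7.39 and 7.01 CPM, the TACI long replicates 0.213, 0.175 and 0.209, and the TACI short replicates 8.44, 7.96 and 7.65. The TACI long libraries lay far below all others, and those of TACI short lay just above control. In TACI long only 26 counts were left over 3 libraries, against 973 in control, a count ratio of 36 (exact 95% interval 24.4 to 55.4, counting error only). This interval and those of RAB4A and PXDNL below hold no spread between libraries. They describe the comparison that chose the genes and are no test of it. The mean was 0.199 ± 0.0204 CPM (SD, n = 3) against 7.15 ± 0.213 in control, or 2.78% of it. On the TMM-scaled log2 scale used by the test, the change was -5.15, the sixth lowest of all tested genes. In TACI short, where it was tested, MRI1 was not called (log2 fold change 0.04 ± 0.10 SE, edgeR adjusted p = 0.759). The direction of that small value turned to -0.03 without TACI short replicate 1.

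RAB4A (ENSG00000168118, chr1:229271062-229305894, plus strand) had the same pattern at a less deep level. Control libraries had 7.72, 9.41 and 9.24 CPM, TACI long 0.780, 0.483 and 0.324, and TACI short 7.54, 9.50 and 10.9. TACI long was below every other library, while TACI short and control overlapped. The TACI long mean of 0.529 ± 0.231 CPM (SD, n = 3) was 6.02% of the control mean of 8.79 ± 0.932, with 69 counts against 1196 (ratio 16.7, interval 13.1 to 21.6). The log2 change was -4.05, at rank 22 from the lowest. The tested change in TACI short was -0.04 ± 0.19 (edgeR adjusted p = 0.859), and it turned positive, to 0.04 and 0.09, with upper-quartile factors and with column totals alone.

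PXDNL (ENSG00000147485, chr8:51319578-51809445, minus strand) went in opposite directions in the lines. Its libraries had 2.87, 2.50 and 2.83 CPM in control, 0.213, 0.0877 and 0.209 in TACI long, and 7.76, 8.06 and 7.77 in TACI short. The 3 groups did not overlap, with TACI long lowest and TACI short highest. TACI long held 22 counts against 373 in control (ratio 16.3, interval 10.6 to 26.3) and a mean of 0.170 ± 0.071 CPM (SD, n = 3), 6.21% of 2.73 ± 0.201. In TACI short, PXDNL rose by 1.39 ± 0.14 on the log2 scale to 7.86 ± 0.17 CPM, 2.88 times control (edgeR adjusted p = 9.13e-09). PXDNL was the gene called higher among the 3 tested in TACI short, and no gene of these 3 was called lower. Over all 16672 genes, 31.5% were called higher and 31.1% lower in that comparison, so these counts are not a result about the 3 genes. With column totals alone in place of TMM factors, 6873 genes were called higher and 3771 lower, against 5256 and 5179, and the median change of all genes moved up by 0.13.

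AGGF1 (ENSG00000164252, chr5:77029251-77065234, plus strand) was low in both lines and uneven within TACI short. Control libraries had 7.78, 8.77 and 7.44 CPM, TACI long 1.87, 2.26 and 1.51, and TACI short 0.383, 1.76 and 1.94. TACI short replicates 2 and 3 lay among the TACI long libraries, and replicate 1 lay below them all. TACI short had 185 counts against 1087 in control, and its mean of 1.36 ± 0.851 CPM (SD, n = 3) was 17.0% of 8.0 ± 0.692, a log2 change of -2.69. Replicates 2 and 3 had 4.6 and 5.06 times the level of replicate 1, which alone was at 4.78% of the control mean, and without them the log2 change was -4.46. They are the libraries with the most myeloid marker RNA, and the part of that RNA in the AGGF1 level was not tested. In TACI long, the tested comparison, AGGF1 fell by 2.09 ± 0.47 on the log2 scale to 1.88 ± 0.376 CPM, 4.26-fold lower than control (edgeR adjusted p = 0.0094). That error shares 1 estimate of the spread over the 3 groups, the uneven TACI short among them. A fit of only control and TACI long gave -2.08 (edgeR adjusted p = 7.62e-14). With 1 library left out, the edgeR adjusted p was at most 0.043.

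MPEG1 (ENSG00000197629, chr11:59208510-59212951, minus strand) was the most abundant of the 7 and also low in both lines. Control libraries had 109, 111 and 109 CPM, TACI long 11.7, 10.9 and 10.8, and TACI short 18.3, 19.1 and 21.2. No groups overlapped, and TACI long, which did not choose the gene, was the lower of the lines. TACI short had 19.6 ± 1.52 CPM (SD, n = 3), 17.8% of 110 ± 1.07 in control, a log2 change of -2.62 from 2648 counts against 14980. In TACI long, MPEG1 fell by 3.30 ± 0.06 on the log2 scale to 11.1 ± 0.464 CPM, 9.89-fold lower (edgeR adjusted p = 1.43e-22). MPEG1 is also a macrophage gene, and it was at 1.05 and 1.16 times its TACI short replicate 1 level in replicates 2 and 3, which hold more myeloid marker RNA.

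WDR35 (ENSG00000118965, chr2:19910260-19990131, minus strand) was low in TACI short. Its libraries had 4.72, 5.63 and 5.08 CPM in control, 5.96, 6.10 and 5.70 in TACI long, and 0.923, 1.54 and 1.48 in TACI short. TACI short lay below all other libraries, and TACI long lay above every control library. The TACI short mean was 1.31 ± 0.339 CPM (SD, n = 3), 25.5% of 5.14 ± 0.457, a log2 change of -2.10. As with AGGF1, replicates 2 and 3 stood above replicate 1, here by 1.67 and 1.60 times, and without them the change was -2.56. The rise of 0.21 ± 0.13 in TACI long was not called (edgeR adjusted p = 0.205), although a fit of only control and TACI long gave 0.0498.

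HTR3A (ENSG00000166736, chr11:113974881-113990313, plus strand) formed 3 steps. Control libraries had 12.7, 9.83 and 12.4 CPM, TACI long 8.06, 7.33 and 8.09, and TACI short 2.57, 3.00 and 3.29. The groups did not overlap, with TACI long between control and TACI short. The TACI short mean was 2.95 ± 0.367 CPM (SD, n = 3), 25.4% of 11.7 ± 1.59, a log2 change of -2.11. In TACI long, HTR3A fell by 0.57 ± 0.10 on the log2 scale to 7.82 ± 0.432 CPM, 1.49-fold lower (edgeR adjusted p = 6.2e-05).

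Of the 4 genes chosen on TACI short, AGGF1, MPEG1 and HTR3A were thus called lower in TACI long, where 25.9% of all genes were called lower. That comparison uses the control libraries that also entered the choice, so it is not independent of the choice. The count is therefore not a result about the 4 genes. The name "nearly lost" describes the 3 genes chosen on TACI long, at 2.78 to 6.21% of control, better than the 4 chosen on TACI short, at 17.0 to 25.5%. A deep fall was uncommon in either line: 1.61% of all tested genes in TACI long and 0.306% in TACI short were called lower and at least 4-fold lower. By log2 change WDR35 stood at rank 41 and HTR3A at rank 37 from the lowest in TACI short, AGGF1 at 12 and MPEG1 at 13, and PXDNL at 26 in TACI long.

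RefSeq promoter sequence was at hand for 3 of the 7 genes, MRI1, RAB4A and AGGF1. It is shown because MRI1 and RAB4A share a pattern over the libraries, with AGGF1 for comparison. Each line is the 250 bases before the RefSeq start in GRCh38.p14, on the plus strand, with CpG dinucleotides in capitals. They are chr19:13764272-13764521, chr1:229270861-229271110 and chr5:77030154-77030403. RefSeq and the count files place some starts differently: the AGGF1 window lies 903 bases inside the gene as counted, and 49 bases of the RAB4A window lie inside RAB4A.
MRI1: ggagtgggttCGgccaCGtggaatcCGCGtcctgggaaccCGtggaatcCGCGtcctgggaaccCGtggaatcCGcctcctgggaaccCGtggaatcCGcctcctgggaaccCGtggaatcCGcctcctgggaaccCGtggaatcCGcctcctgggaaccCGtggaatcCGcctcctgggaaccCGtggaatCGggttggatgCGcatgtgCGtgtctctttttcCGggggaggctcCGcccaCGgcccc
RAB4A: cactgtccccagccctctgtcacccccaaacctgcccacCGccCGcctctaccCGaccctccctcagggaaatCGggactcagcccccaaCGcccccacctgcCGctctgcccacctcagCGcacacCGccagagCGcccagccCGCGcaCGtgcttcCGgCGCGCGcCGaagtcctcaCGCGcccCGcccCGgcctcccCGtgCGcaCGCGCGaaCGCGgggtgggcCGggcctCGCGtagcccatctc
AGGF1: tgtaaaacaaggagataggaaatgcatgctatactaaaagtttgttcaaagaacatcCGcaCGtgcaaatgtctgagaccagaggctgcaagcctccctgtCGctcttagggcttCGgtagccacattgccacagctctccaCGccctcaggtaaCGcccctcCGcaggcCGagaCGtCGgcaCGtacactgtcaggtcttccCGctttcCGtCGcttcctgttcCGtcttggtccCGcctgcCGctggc
The MRI1 window holds 24 CpG, and 23.7% of 35116 promoters of that length hold as many. RAB4A, with 31 CpG and a GC content of 75.2%, is matched by 10.9% of promoters, and AGGF1, with 17 CpG, by 39.0%. Of the motifs searched on both strands, the E-box CACGTG occurs in each of the 3 windows, against 6.34% of all promoters. The E-box itself holds a CpG, and all promoters have a median of 11 CpG, fewer than these windows. No share among promoters of like CpG content was taken, so the match is not a sign of enrichment. The GC box GGGCGG matches at 1 place in MRI1, 2 in RAB4A and 0 in AGGF1, against 42.6% of promoters. The CAAT box, spelled CCAAT, the TATA box, spelled TATAAA, and the cAMP response element, spelled TGACGTCA and sharing ACGT with the E-box, match nowhere in the 3 windows and occur in 32.0, 10.7 and 1.65% of promoters. The MRI1 window also repeats CGTGGAATCCGC 7 times at a spacing of 24 bases, from base 17 to base 172. These matches describe letters, not binding.

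The genes with the most similar course over the 9 libraries were found by the root mean square difference of log2(CPM + 0.5) after centring on control, and they are named as a description. MRI1 and RAB4A were each other's nearest gene of all tested, at 0.27 log2 units, although they lie on different chromosomes. The added 0.5 CPM flattens levels near or below it, such as 0.199 CPM for MRI1 and 0.529 for RAB4A in TACI long. Their log2 changes there were -5.15 and -4.05, and those of PXDNL and its match PFKFB4, named below, were -4.00 and -2.61. The measure also includes the values that chose each gene. The long noncoding RNA OLMALINC came next to MRI1 at 0.39, with 40.2, 2.99 and 70.3 CPM in control, TACI long and TACI short. ZFP36L1, an RNA-binding protein that speeds decay of AU-rich messages, came next to RAB4A at 0.37, with 150 CPM in control, 23.2 in TACI long and 136 in TACI short. For PXDNL they were BHLHE40, a transcription factor of the hypoxia and circadian responses, at 0.08, and PFKFB4, a regulator of glycolysis, at 0.13. PFKFB4 was at 16.6 CPM in control, 2.72 in TACI long and 45.0 in TACI short, so all 3 were low in TACI long and high in TACI short. MPEG1 was nearest to FADS1, a fatty acid desaturase, at 0.29, with 12.1, 1.14 and 2.42 CPM in control, TACI long and TACI short, and then to FOS at 0.68. HTR3A was nearest to IGHD, the IgD heavy chain constant gene, at 0.10 and to DDN at 0.15, and IGHD formed the same steps, from 138 CPM to 92.2 and 38.7. WDR35 was nearest to TNFSF11, the cytokine RANKL, at 0.17 and to SUMO3 at 0.25. For AGGF1 they were the antisense gene ENSG00000227218 at 0.50, the least close nearest match of the 7, and ABCC4 at 0.54.

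Genes beside each locus were compared as a measure of what happened along the chromosome. The 5 nearest tested genes on each side gave 30 neighbours of the 3 genes chosen on TACI long. Of these, 13 were called lower there, 6 higher and 11 not, with a median log2 change of -0.16 (range -1.84 to 1.00) against 0.00 over all genes, of which 25.9% were called lower and 25.2% higher. For the 4 genes chosen on TACI short, 15 of 40 neighbours were called lower in that line, 12 higher and 13 not, against 31.1% lower and 31.5% higher of all genes, with a median of -0.05 against 0.03. Column totals alone turned that split to 10 lower and 15 higher, against 3771 lower and 6873 higher of all genes. With 1 library left out at a time, 11 to 15 neighbours were called lower and 9 to 14 higher in TACI short. No tested gene within 1000 kb of MRI1 (48 genes), RAB4A (12), PXDNL (6), AGGF1 (11), WDR35 (11) or HTR3A (9) was 4-fold or more lower in the line that chose it, and 1 of 26 was near MPEG1. RNA levels do not measure DNA, and the copy number and sequence of these loci were not tested.

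**Figure D2:**
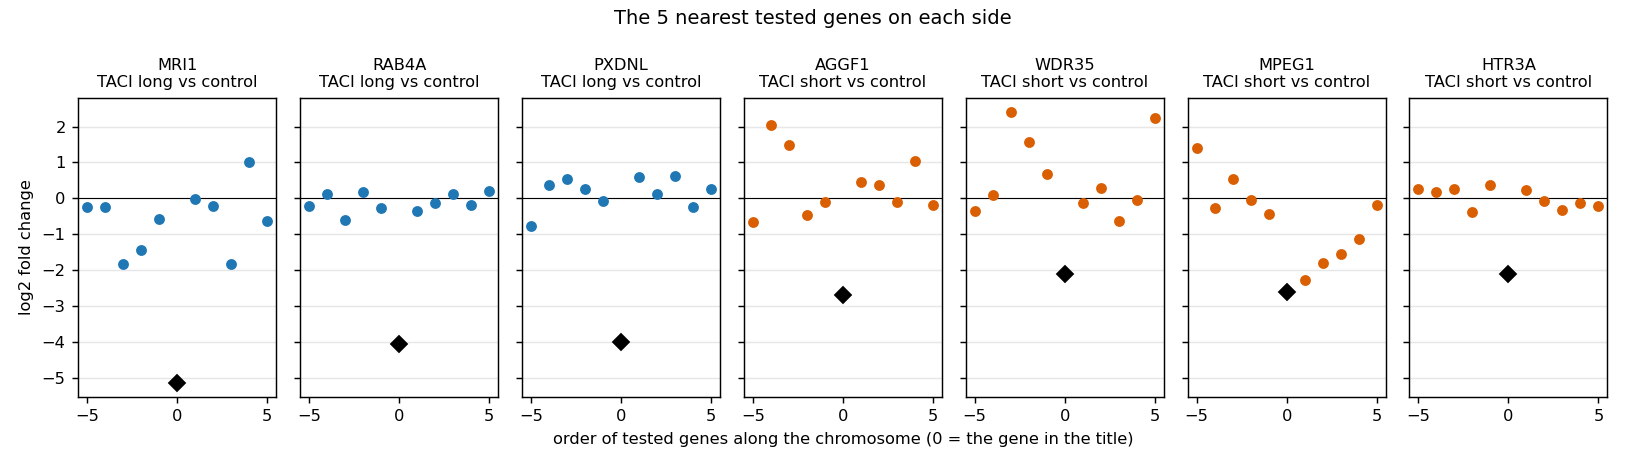
Log2 fold change against control of the 5 nearest tested genes on each side of each gene, in the line that chose it, with the gene itself as a black diamond at position 0. The diamonds of MRI1, RAB4A and PXDNL lie at -5.15, -4.05 and -4.00, below every neighbour in their panels.

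MRI1 had the most neighbours called lower, 8 of 10 in TACI long against 25.9% of all genes, with 1 higher, BRME1. In TACI short, where MRI1 was not called, 6 of the same 10 were called lower, against 31.1% of all genes. YJU2B, a splicing factor gene that ends 1.24 kb from MRI1, fell from 18 ± 0.645 to 12.2 ± 0.849 CPM (log2 fold change -0.57 ± 0.07, edgeR adjusted p = 1.77e-07). On the other side C19orf53, which shares 115 exon bases with MRI1, was at 103 ± 4.38 CPM in control and 102 ± 2.93 in TACI long (-0.02 ± 0.06, adjusted p = 0.791). IER2, an immediate early gene 610 kb away, fell by 1.84 (adjusted p = 8.15e-20), and CACNA1A, a calcium channel gene 132 kb away, by 1.43 (adjusted p = 1.72e-12). MIR23AHG, the host transcript of a microRNA cluster 60.2 kb away, fell by 1.83 from 0.357 CPM (adjusted p = 0.00144). The antisense gene ENSG00000267633 shares 1078 of the 3456 exon bases of MRI1, and it had at most 0.0315 CPM in any group.

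Around RAB4A, CCSAP at 15.1 kb fell from 5.78 to 4.51 CPM in TACI long (log2 fold change -0.36 ± 0.09, edgeR adjusted p = 0.00248). NUP133, a nuclear pore gene 134 kb away, rose by 0.13 (adjusted p = 0.0115), a call lost in 5 alternatives. SPHAR, which lies within RAB4A and shares 648 exon bases, had no count in any library, and how the counting assigned such shared bases is not given in the sources used here. PCMTD1, 8.13 kb from PXDNL, rose in TACI long from 13.3 to 20.1 CPM (0.59 ± 0.06, adjusted p = 1.17e-08). ST18, 301 kb from PXDNL, rose by 0.26 (adjusted p = 0.00898), and that call was lost in 1 alternative. On the other side of PXDNL the nearest tested gene was 2090 kb away. In TACI short, where PXDNL rose, 9 of its 10 neighbours were called higher, among them PCMTD1 by 1.27 and ST18 by 0.92, against 31.5% of all genes. Most of the others were below 2 CPM in every group.

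For the genes chosen on TACI short, the nearest genes also kept other courses. CRHBP, 48.1 kb from AGGF1, was not called in TACI short (log2 fold change -0.09, edgeR adjusted p = 0.73; 0.04 with column totals alone), and PDE8B on the far side rose by 0.46 (adjusted p = 0.0115, lost in 4 alternatives). TTC32, 8.27 kb from WDR35, rose from 7.86 to 13.8 CPM (0.68 ± 0.08, adjusted p = 1.78e-07). LAPTM4A, 42.5 kb from WDR35, was at 51.8 and 52.0 CPM (-0.12 ± 0.04, adjusted p = 0.0204, lost in 4 alternatives; 0.01 with column totals alone). The neighbours of HTR3A moved between -0.38 for ZW10 and 0.38 for USP28. AGGF1, WDR35 and HTR3A share no exon base with another gene.

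Of the genes chosen on TACI short, MPEG1 was the exception, since genes on its upstream side were low as well. Among those chosen on TACI long, the 5 upstream neighbours of MRI1 were all called lower in that line, against 25.9% of all genes. They ran from -0.23 for STX10 to -1.84 for IER2. In TACI short 7 of the 10 neighbours of MPEG1 were called lower and 2 higher, against 31.1% lower and 31.5% higher of all genes. With column totals alone they were 6 and 3, against 3771 lower and 6873 higher of all genes. The pseudogene WARS1P1, 42.4 kb upstream, had 73 counts over the control libraries, 42 in TACI long and 16 in TACI short, a log2 change of -2.27 ± 0.38 in TACI short (edgeR adjusted p = 1.88e-05). SLC25A47P1 at 50.4 kb fell by 1.79 ± 0.26 (adjusted p = 2.9e-06), and the noncoding gene ENSG00000214797 at 55.9 kb fell by 1.55 ± 0.22 (adjusted p = 1.75e-06), from 320 counts to 118. The fitted changes in TACI short were thus smaller with each gene away from MPEG1 on that side. They reached -1.13 ± 0.24 for ENSG00000254704 at 74.4 kb and -0.19 for OSBP at 361 kb. A trend with distance was not tested. The fitted changes of WARS1P1, SLC25A47P1 and ENSG00000214797 in TACI long, given next, ran the other way. In TACI long, SLC25A47P1 and ENSG00000214797 also fell, by 0.86 (adjusted p = 0.0059, lost without TACI long replicate 2) and 0.97 (adjusted p = 0.000555), while ENSG00000254704 rose by 0.55 (adjusted p = 0.0447, lost in 9 alternatives) and WARS1P1 was not called (-0.74, adjusted p = 0.0709). Pseudogenes share sequence with their parent genes, so their counts are uncertain. DTX4, which shares 78 exon bases with the other end of MPEG1, fell by 0.44 in TACI short (adjusted p = 1.88e-07) and by 0.85 in TACI long (adjusted p = 7.15e-12). FAM111A beyond it was not called in TACI short (-0.05, adjusted p = 0.333), and its sign turned to 0.03 with upper-quartile factors and 0.08 with column totals alone.

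**Figure D3:**
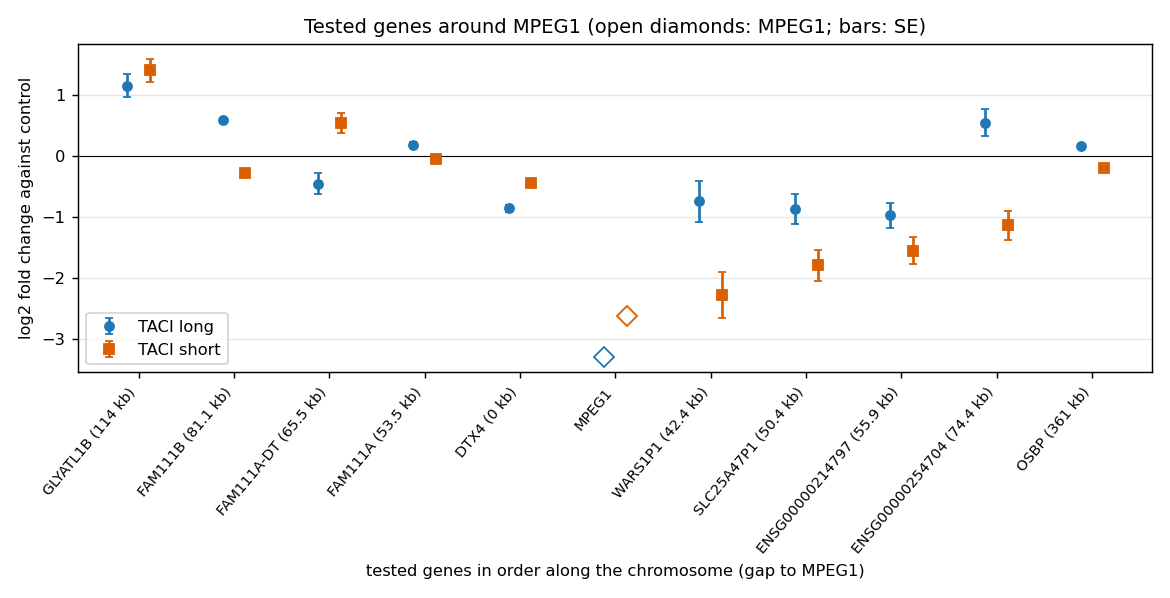
Log2 fold change against control of MPEG1 (open diamonds) and the 5 tested genes on each side, in chromosome order, with circles for TACI long, squares for TACI short and bars of 1 standard error. To the right of MPEG1 the TACI short squares climb from -2.27 to -0.19.

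The other genes of each pathway or family were counted in the line that chose its gene. In TACI long 25.2% of all genes were called higher and 25.9% lower, and in TACI short 31.5% higher and 31.1% lower. All 19 genes of methionine salvage and polyamine synthesis were tested in TACI long: 6 rose, 6 fell and 7 were not called, with a median log2 change of -0.01. SAT1, which acetylates spermidine and spermine, fell from 46.9 to 20.8 CPM (-1.17 ± 0.05, edgeR adjusted p = 8.16e-15). ADI1, which acts later than MRI1 in the salvage path, rose from 39.9 to 66.5 CPM (0.74 ± 0.05, adjusted p = 1.36e-11). AZIN1 and AMD1, of polyamine synthesis, rose by 0.37 (adjusted p = 4.99e-08) and 0.29 (adjusted p = 1.17e-06). APIP, which acts on the product of MRI1, rose by 0.19 (adjusted p = 0.000879), and MTAP, which makes its substrate, was not called (-0.01, adjusted p = 0.907; its sign turned in 5 alternatives).

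All 21 genes of RAB4-dependent recycling were tested in TACI long, where 7 rose, 5 fell and 9 were not called, with a median of 0.06. EHD1, which drives exit from recycling endosomes, rose from 125 to 224 CPM (log2 fold change 0.85, edgeR adjusted p = 1.37e-13), and RAB11A, the GTPase of slow recycling, rose by 0.46 (adjusted p = 1.73e-09). TBC1D16, a RAB4A GTPase-activating protein, rose by 0.84 (adjusted p = 4.97e-07). NDRG1 fell by 0.86 (adjusted p = 5.03e-06), and the others that fell were RABEP1 (lost in 3 alternatives), RABEP2 (lost in 1), GRIPAP1 and RAB11FIP1. RAB4B, the close relative of RAB4A, was at 4.31 ± 0.263 CPM in control and 4.76 ± 0.593 in TACI long (0.14 ± 0.12, adjusted p = 0.337). Of the 9 haem peroxidase genes besides PXDNL only PTGS1 and PTGS2 passed the filter, and the rest were at or below 0.149 CPM in every group. None of the pair was called in TACI long by edgeR or by DESeq2, and 0 had an unadjusted p below 0.05 (PTGS1 0.76 ± 0.57, edgeR adjusted p = 0.332; PTGS2 0.16 ± 0.91, adjusted p = 0.907). Without TACI short replicate 1, PTGS1 was called. PXDN, the nearest relative of PXDNL, had 9 counts over all libraries.

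All 22 G-patch genes beside AGGF1 were tested in TACI short, where 15 fell, 2 rose and 5 were not called. The median log2 change was -0.26 against 0.03 over all genes, of which 31.1% were called lower and 31.5% higher. With column totals alone 12 fell and 4 rose, against 3771 lower and 6873 higher of all genes. With upper-quartile factors 14 fell and 4 rose, against 4330 lower and 6320 higher of all genes. Neither this list nor the next was tested as a set. GPATCH4 fell by 0.98 from 100 to 55.2 CPM (edgeR adjusted p = 4.04e-15), GPATCH3 by 0.70 (adjusted p = 1.13e-08), and the splicing proteins CHERP and SUGP1 by 0.56 (adjusted p = 2.42e-10) and 0.51 (adjusted p = 4.39e-09). GPATCH2L and SUGP2 were those that rose. All 28 intraflagellar transport genes besides WDR35 were tested, and there 13 rose, 4 fell and 11 were not called. Their median was 0.12, and 31.5% of all genes were called higher and 31.1% lower. With column totals alone 17 rose and 2 fell, against 6873 higher and 3771 lower of all genes. IFT140, a partner of WDR35 in the A complex, rose from 2.2 to 6.85 CPM (1.5 ± 0.12, edgeR adjusted p = 2.16e-10). The further A-complex subunits TTC21B, IFT43 and IFT122 rose by 0.43 (adjusted p = 1.59e-07), 0.62 (adjusted p = 0.000246) and 0.23 (adjusted p = 0.00462, lost in 1 alternative). WDR19, also of that complex, was not called (-0.02, adjusted p = 0.845; its sign turned in 4 alternatives). IFT81 and IFT80 of the B complex rose by 0.88 (adjusted p = 2.21e-10) and 0.56 (adjusted p = 1.86e-07), and IFT172, TRAF3IP1, KIF3A and KIF3B fell. The fall of TRAF3IP1 was lost in 6 alternatives and turned to 0.01 with column totals alone, and that of KIF3A was lost in 2.

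Of 11 further genes with the MACPF pore-forming domain, BRINP3 and ASTN2 were tested in TACI short, and PRF1, the perforin of killer cells, had 26 counts over all libraries. BRINP3 rose from 36.2 to 64.2 CPM (log2 fold change 0.70, edgeR adjusted p = 7.54e-11). ASTN2 rose by 0.33 (adjusted p = 0.047), a call lost in 12 alternatives, among them the fit with the replicate number as a block. Of 23 genes for serotonin receptors, transport and synthesis, 6 were tested, and in TACI short HTR4, HTR7 and MAOA rose, TPH1 and SLC18A2 fell and DDC was not called. The rise of HTR7 was lost in 7 alternatives, and its log2 change of 1.90 was 0.04 without TACI short replicates 2 and 3. All were rare: HTR4 went from 0.446 to 2.14 CPM (2.13 ± 0.23, edgeR adjusted p = 2.82e-08) and MAOA, which degrades serotonin, from 0.0522 to 0.663 (3.49 ± 0.55, adjusted p = 6.74e-06). TPH1, which starts serotonin synthesis, fell by 2.35 from 0.324 CPM (adjusted p = 0.000261), and SLC18A2, the vesicle transporter, by 1.86 from 0.300 (adjusted p = 0.00213). HTR3B, the usual partner of HTR3A in the channel, had 2 counts over all libraries.

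**Figure D4:**
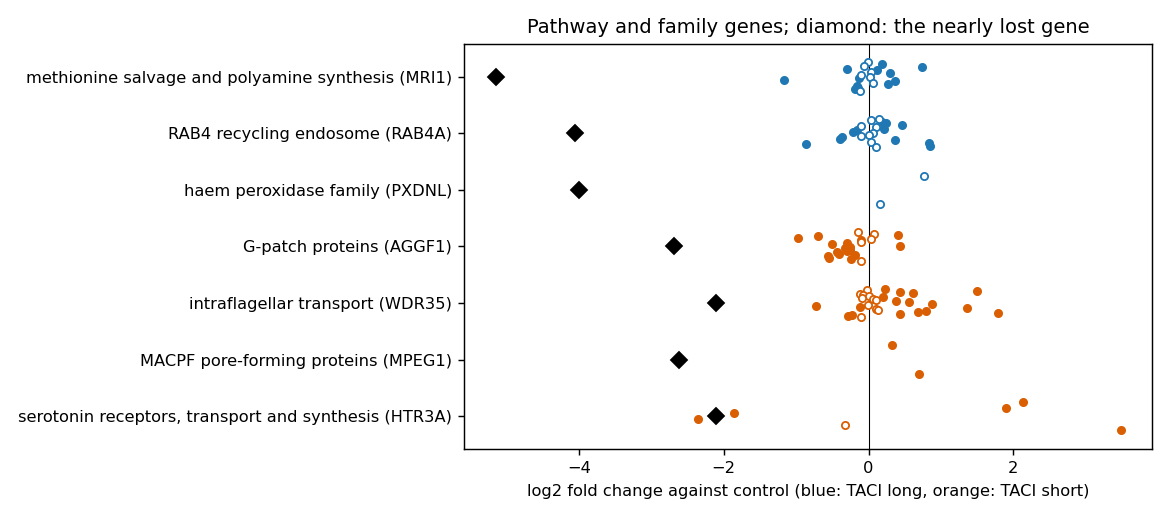
Log2 fold change against control of the tested genes of 7 pathway or family lists, in TACI long (blue) or TACI short (orange), filled where called at an adjusted p below 0.05 and open where not. The black diamond is the gene each list belongs to, from -5.15 for MRI1 to -2.10 for WDR35, and each diamond lies to the left of all list genes in its row except TPH1 in the serotonin row.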

How the data were processed

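The authors deposited raw counts per gene, 1 table per library. The submitters' processing notes name FastQC, STAR 2.4.0h, HTSeq and hg38, while the columns are laid out like those of featureCounts. The annotation release, strand setting and filters are not given in the sources used here. Of 57500 gene IDs, 56898 are in GENCODE 29, the source of symbols and gene types. With no strand kept, reads of overlapping and antisense genes cannot be told apart.

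Genes were kept by filterByExpr (minimum count 10, total 15), scaled by TMM and, with all 9 libraries in 1 model, tested by edgeR 4.0.16 (R 4.3.3; quasi-likelihood, robust), with 6 residual degrees of freedom and a common biological coefficient of variation of 0.0792. A gene counts as called below an adjusted p of 0.05 (Benjamini-Hochberg over 16672 genes). Standard errors are the absolute log2 fold change over the square root of F, and all ± values beside a log2 fold change are such errors. CPM is the count over the column total. The fit was tested on simulated data.

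Genes named are the 7, their neighbours and overlapping genes, the 2 most similar genes and up to 4 genes of each of 7 lists by adjusted p. APIP, MTAP, RAB4B, PXDN, PRF1, HTR3B, IFT122, IFT43, WDR19 and the further called genes of short counts fall outside that rule and were picked after their values were seen. The members and lists were chosen with earlier results of these data known. Of 4 marker lists, B-cell and myeloid sums are in the text. T and NK markers summed to 2.8 to 3.72 CPM, and epithelial and fibroblast markers, mostly EPCAM, to 80.7 to 120, in the 9 libraries. Of the latter, COL1A1 and COL1A2 were at 11.0 and 3.99 CPM in TACI short replicate 2 and 10.2 and 4.11 in replicate 3, against at most 3.24 and 1.44 elsewhere. PINX1 has 2 IDs, and the one with more counts was used.

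Deviations from group means of same-numbered control and TACI short libraries had r of 0.43, 0.21 and 0.18, and of control and TACI long -0.12, 0.07 and -0.11. Differently numbered control 3 and TACI short 2 (0.23), and control 2 and TACI short 3 (0.19), deviated together as much. Within control and TACI short, what separates is thus replicate 1 from 2 and 3. TACI long did not follow these numbers. Its replicate 3 went with TACI short replicate 1 (0.35) and control replicate 1 (0.21), and against TACI short replicates 2 (-0.31) and 3 (-0.26). The main tests used no pairing in either line, and the replicate number entered only as a block in alternative fits. No label says what a number marks. Tried as alternatives were upper-quartile factors, column totals, the DESeq2 1.42.0 test, its size factors within edgeR, filters, fewer groups, the replicate block, libraries left out and other neighbours. A block of control and TACI short only, TACI short replicate 1 alone and protein-coding neighbours were added after seeing the data.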

Additional observations from a re-analysis of the deposited data

How the results depend on the processing

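With 3 libraries a group and TACI short replicates 2 and 3 apart from the rest, precision rests on few libraries, and genes below about 1 CPM rest on few counts. No gene of the 7 changed direction in the line that chose it under the 18 (TACI long) or 19 (TACI short) alternatives run on its fold change. As the genes were chosen for low levels in those same libraries, the unchanged direction is no support for the falls. With the replicate number as a block, the log2 fold change of PXDNL in TACI short was 1.40 (edgeR adjusted p = 4.33e-08) and that of AGGF1 in TACI long -2.1 (adjusted p = 0.0248). The block changed no call of the 7 genes. Among the lists it left 1 called MACPF gene in place of 2 and 4 serotonin genes in place of 5, and gave 14 in place of 12 for methionine, 13 in place of 12 for RAB4, and 18 in place of 17 for both G-patch and intraflagellar transport genes. The causes of the changes below were not tested.

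Leaving out 1 library at a time, the log2 change in TACI long ran from -5.2 to -5.05 for MRI1, -4.43 to -3.8 for RAB4A and -4.2 to -3.66 for PXDNL. In TACI short it ran from -0.03 to 0.08 for MRI1 and -0.17 to 0.07 for RAB4A, neither called. RAB4A in TACI short was 0.04 with upper-quartile factors and 0.09 with column totals. Without TACI short replicates 2 and 3, the change in TACI short was -4.46 for AGGF1, -2.56 for WDR35, -0.31 for RAB4A and 0.15 for MRI1. MPEG1 in TACI short was at -2.49 with column totals. WDR35 in TACI long was 0.21 with only control and TACI long, and then called (adjusted p = 0.0498). With no filter, which adds rare genes, neighbours called lower and higher were 7 and 2 in TACI long and 8 and 7 in TACI short. With 10 neighbours on each side, 19 of 60 were lower and 12 higher in TACI long, and 24 of 80 were lower and 25 higher in TACI short. Haem peroxidase genes called ranged from 0 to 1 and MACPF genes from 1 to 2 with libraries left out. The MACPF count was also 1 with DESeq2, with no filter, with either block, with only control and TACI short and without TACI short replicates 2 and 3. A minimum of 1 CPM in 3 libraries left 1 called serotonin gene.

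Small values that turned sign were C19orf53 (0.02 without control replicate 1 or TACI long replicate 2; -0.05 to 0.02 with libraries left out), CRHBP (0.04), LAPTM4A (0.01) and TRAF3IP1 (0.01) with column totals, and FAM111A (0.03 with upper-quartile factors, 0.08 with column totals, 0.01 without TACI short replicates 2 and 3). PTGS2 was -0.01 without TACI long replicate 1 (-0.01 to 0.44 with libraries left out). MTAP was 0.00 with DESeq2, with its size factors and without TACI short replicates 2 and 3, 0.02 without control replicate 2 and 0.01 without TACI long replicate 1 (-0.04 to 0.02 with libraries left out). WDR19 was 0.06 with upper-quartile factors, 0.11 with column totals, 0.01 with the 1 CPM filter and 0.09 without TACI short replicate 3 (-0.12 to 0.09 with libraries left out). Of 82 results on other named genes, 59 kept call and direction throughout and 14 lost a call in at least 1 alternative.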
